A study of Equus caballus with 32 samples.

Results

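The 8 genes described here are integrin chains of leukocytes and one selectin ligand: ITGAL, ITGAM, ITGAX, ITGB2, ITGA4, ITGB1, ITGB7 and SELPLG. They were chosen by name, as the non-control probes whose gene name on the array is one of these symbols, and they are 8 of the 15063 gene symbols on it. The arrays were hybridised with RNA from whole blood of 32 Welsh Pony mares, drawn 30 days after their foals were weaned. Of these mares 16 had a progressive weaning and 16 a brutal weaning, with 1 array per mare. The labels give no age and do not describe how either weaning was done. Each of the 4 slides carries 8 arrays, 4 from progressive and 4 from brutal mares.

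Integrins are adhesion receptors made of an alpha and a beta chain, and neither chain reaches the cell surface well without its partner. ITGB2 is the shared beta chain of the leukocyte integrins and pairs with ITGAL (the alpha chain of lymphocyte function-associated antigen), with ITGAM (the alpha chain of the complement receptor of neutrophils and monocytes) and with ITGAX (the alpha chain of a related receptor of myeloid cells). ITGA4 pairs with ITGB1, the beta chain found on most cell types, or with ITGB7, the beta chain used by lymphocytes that home to the gut. SELPLG is the mucin on leukocytes that selectins bind while the cells roll along a vessel wall, before integrins hold them firmly.

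The 8 genes have 29 probes, which are 7 each for ITGAX and ITGB1, 5 each for ITGB2 and ITGA4, 2 for ITGAL and 1 each for ITGAM, ITGB7 and SELPLG. Of these, 27 were tested, because their signal stood well above background in 8 or more of the 16 mares of either group. The other 2 belong to ITGAX, and they stood well above background on 4 progressive and 5 brutal arrays, and on 1 progressive and 0 brutal arrays. A gene is represented by its brightest tested probe, and all 8 of these stood well above background on 32 of 32 arrays. The sequences below show how far the probes of ITGAX and of ITGB2 repeat each other, and where the ITGB2 and ITGB7 probes are most alike.

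The 5 tested ITGAX probes are shifted by 1 base each and share a core of 56 bases, in capitals in the first and the last of them. They lie on the minus strand at chr13:5890407-5890470 of the build named in the file headers, EquCab1, and repeat 1 measurement rather than giving 5.
A_69_P018396: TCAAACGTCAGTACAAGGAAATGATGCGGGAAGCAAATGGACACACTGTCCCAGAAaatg
A_69_P018400: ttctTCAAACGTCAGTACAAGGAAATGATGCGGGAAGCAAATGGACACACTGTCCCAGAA

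The stretch most alike between different members lies in the beta chains. The ITGB2 probe Oligo-185 and the only ITGB7 probe, at chr6:70262506-70262811 on the minus strand, share 23 identical bases of 30 in their best ungapped stretch, and capitals mark the identical bases.
Oligo-185: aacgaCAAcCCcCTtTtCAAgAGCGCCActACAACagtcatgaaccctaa
A_69_P053411: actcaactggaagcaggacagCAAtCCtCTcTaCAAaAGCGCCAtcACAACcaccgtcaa

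A second ITGB2 probe, at chr26:1871080-1871139 on the plus strand, overlaps Oligo-185 over 44 bases, of which 43 are identical. They differ by the substitution G27A, counted from the 5′ end of the probe printed here and with the base of Oligo-185 last, and the capital marks that base.
A_69_P017096: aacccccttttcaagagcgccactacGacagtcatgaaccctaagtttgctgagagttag

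ITGAM and SELPLG have 1 probe each, so the results on them rest on the following 2 sequences, with no part marked. The ITGAM probe lies at chr13:5924771-5924830 on the minus strand and the SELPLG probe at chr8:12151356-12151415 on the plus strand.
A_69_P018401: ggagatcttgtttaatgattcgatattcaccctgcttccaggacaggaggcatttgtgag
A_69_P000431: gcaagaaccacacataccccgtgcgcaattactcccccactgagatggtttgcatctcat

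In the RefSeq horse annotation used for names (assembly TB-T2T), ITGAX lies between ITGAD and ITGAM on chromosome 13, and ITGAL lies on the same chromosome.

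A level here is the log2 of a probe's signal over the 75th percentile of its own array, so that 0 is that percentile and each unit is a doubling of signal. The 75th percentile ran from 339.2 to 646.004 intensity units over the arrays, 53.01 to 66.01% of an array's spots stood well above background, and no spot was saturated. Of the 2483 spots marked as outliers by the extraction software and left out, 851 lay on 1 array, progressive 16. The number of arrays limits the precision of every value. No level is set against that of another gene, because probes differ in brightness for the same amount of RNA.

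None of the 8 genes differed between progressive and brutal weaning past an adjusted p of 0.05 (limma, Benjamini-Hochberg over 9392 genes). Over all genes tested the percentage called was 0, and over all 26368 probes it was 0 as well. The smallest adjusted p was 0.997 over the genes. At an unadjusted p under 0.05 there were 237 genes, 2.52% of those tested, and 0 of the 8 members. Among probes 715 passed the same limit, 2.71% of those tested, and none was a probe of a member. The difference, progressive minus brutal, was below 0 for 6 of the 8 members, against 57.5% of all genes, with a median of -0.04 over the members and -0.02 over all genes.

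Among the chains that pair with ITGB2, ITGAM ran from -2.71 to -0.94 with a median of -1.88 after progressive weaning, and from -2.52 to -1.22 with a median of -1.78 after brutal weaning. The groups overlapped, and 11 of the 16 progressive mares lay within the brutal range. The highest ITGAM level was that of progressive 16. ITGAM averaged -1.94 ± 0.51 after progressive and -1.81 ± 0.35 after brutal weaning (SD, n = 16 each), a difference of -0.13 (SE 0.15, 95% interval -0.44 to 0.17). Without progressive 16 it was -0.20.

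ITGAX ran from -3.18 to -1.40 with a median of -2.07 after progressive weaning, and from -3.06 to -1.20 with a median of -2.10 after brutal weaning. Of the 16 progressive mares 15 lay within the brutal range. Its difference was -0.07 (SE 0.17, interval -0.41 to 0.27). ITGAX had the widest range of the 8 genes over the 32 mares, 1.98 on the log2 scale, and its spread within groups was above that of 84.8% of all genes tested.

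ITGAL lay between -3.26 and -2.25 with a median of -2.63 after progressive weaning, and between -3.19 and -2.12 with a median of -2.64 after brutal weaning. The groups covered nearly the same range, and the difference was -0.02 (SE 0.10, interval -0.23 to 0.19).

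The shared beta chain ITGB2 lay between 5.32 and 6.81 with a median of 5.90 after progressive weaning, and between 5.51 and 6.27 with a median of 5.89 after brutal weaning. The highest value was again that of progressive 16, and the next highest progressive mare had 6.14. The difference was -0.04 (SE 0.10, interval -0.24 to 0.17), and without progressive 16 it was -0.10. The 5 ITGB2 probes gave differences from -0.12 to -0.04.

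ITGA4 ran from 1.95 to 2.70 with a median of 2.34 after progressive weaning, and from 1.88 to 2.66 with a median of 2.37 after brutal weaning. Both groups lay in the same range, and the difference was 0.02 (SE 0.076, interval -0.13 to 0.18). Its spread within groups was above that of only 20.9% of all genes tested.

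ITGB1 had levels of 3.40 to 4.07 with a median of 3.68 after progressive weaning, and of 3.15 to 4.10 with a median of 3.68 after brutal weaning. All 16 progressive mares lay within the brutal range. The difference was 0.03 (SE 0.085, interval -0.14 to 0.21), and over the 7 probes it ran from -0.04 to 0.10.

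ITGB7 had levels of 2.32 to 2.95 with a median of 2.68 after progressive weaning, and of 2.21 to 3.16 with a median of 2.73 after brutal weaning. Again all 16 progressive mares lay within the brutal range, and the difference was -0.05 (SE 0.080, interval -0.22 to 0.11).

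SELPLG ran from -1.14 to 0.45 with a median of 0.07 after progressive weaning, and from -0.88 to 0.73 with a median of 0.04 after brutal weaning. Of the 16 progressive mares 15 lay within the brutal range. SELPLG averaged -0.08 ± 0.44 after progressive and 0.06 ± 0.38 after brutal weaning (SD, n = 16 each), a difference of -0.13 (SE 0.14, interval -0.42 to 0.15).

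**Figure D1:**
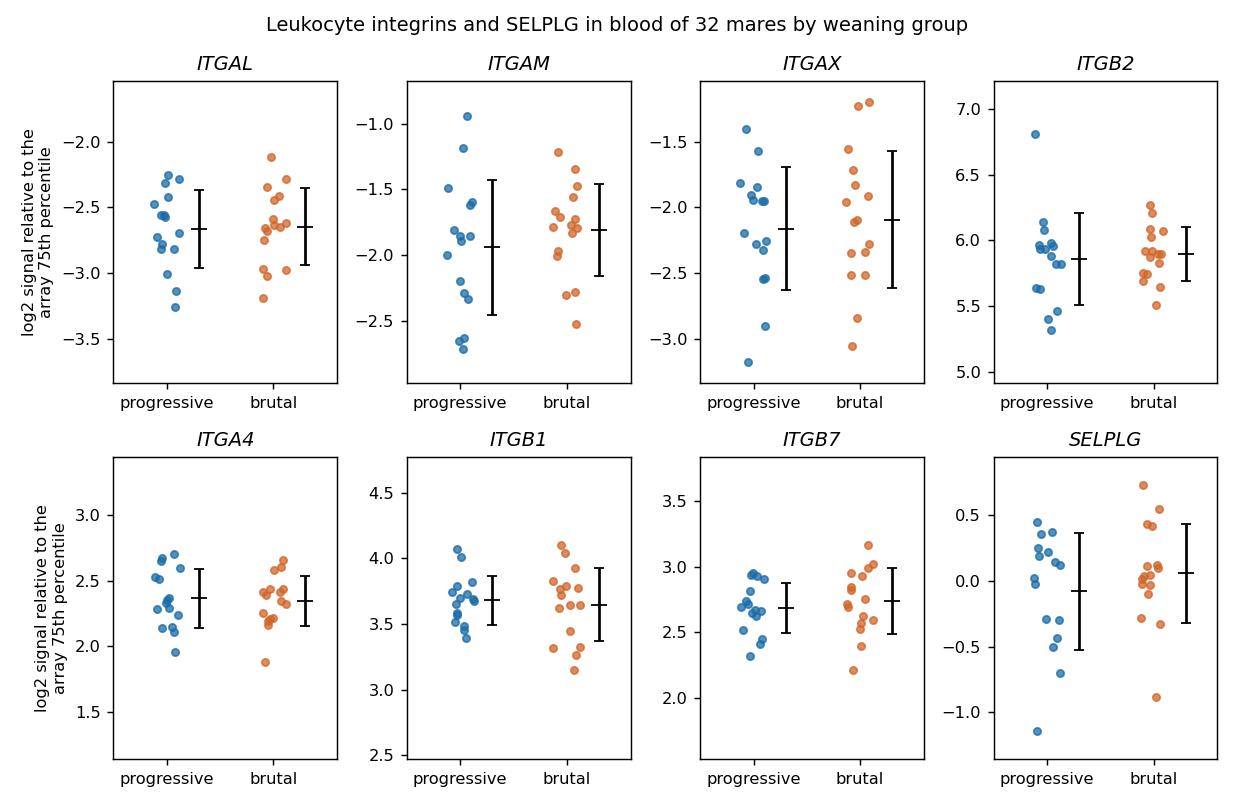
Level of the representative probe of each of the 8 genes (log2 signal relative to the array's 75th percentile) in 16 progressive and 16 brutal mares, 1 point per mare, with the mean and 1 SD beside the points. Every panel spans the same number of log2 units, and the groups overlap in each, as for ITGAM with -2.71 to -0.94 after progressive and -2.52 to -1.22 after brutal weaning.

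**Figure D2:**
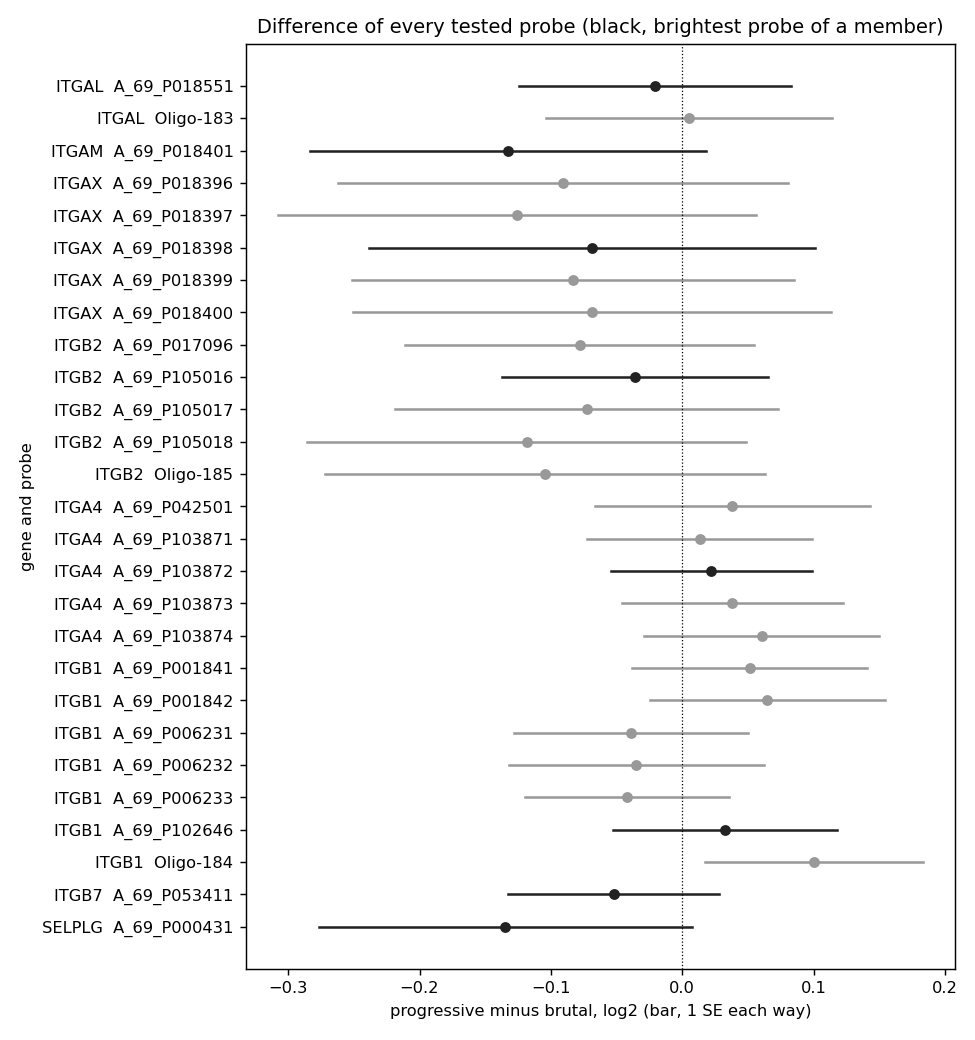
Difference of each tested probe, progressive minus brutal on the log2 scale, with 1 SE each way, for the 8 genes. The 27 member probes lie between -0.13 and 0.10, and 17 of them are below 0.

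Of the 27 tested member probes, none was called, and the smallest unadjusted p was 0.237, for the ITGB1 probe Oligo-184. The largest differences in size were -0.13 for the SELPLG probe and -0.13 for the ITGAM probe. Within single slides, each with 4 mares a group, no member kept 1 sign on all 4 slides. ITGAM, ITGB7 and SELPLG were lower in progressive mares on 3 slides of 4, and the other 5 members on 2 of 4. No member differed between slides or between the 2 rows of arrays on a slide at an adjusted p of 0.05, where the percentage called over all genes was 0 for slides and 0 for rows.

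Other genes of leukocyte adhesion were read from 5 lists, and none of their 71 tested genes was called. Of 8 tested partner integrins 5 were lower after progressive weaning, with a median of -0.07. That median was -0.03 without progressive 16 and -0.08 after quantile normalisation. The smallest p values there were those of ITGAD, a further alpha chain that pairs with ITGB2 (0.67, SE 0.31, unadjusted p = 0.0385), and of ITGA2B, the platelet integrin alpha chain (-0.40, SE 0.23), both with a limma adjusted p of 0.997.

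Of 11 tested selectins and enzymes that build their ligands 7 were lower, with a median of -0.07, against 6 with a median of -0.03 after quantile normalisation. ST3GAL4, a sialyltransferase, had -0.20 (SE 0.098) and FUT7, a fucosyltransferase that completes selectin ligands, had -0.18 (SE 0.12). Of 20 tested genes of integrin activation 13 were lower, with a median of -0.07, and the smallest p values were those of PXN (paxillin, a focal adhesion adaptor) at -0.24 (SE 0.10) and RASSF5 (a Rap effector that binds ITGAL) at -0.10 (SE 0.074).

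Of 21 tested genes of signalling below leukocyte integrins 18 were lower, with a median of -0.08, against 14 with a median of -0.02 after quantile normalisation. ILK, a kinase-like adaptor of beta chains, had -0.16 (SE 0.072) and PARVG, its partner parvin of blood cells, had -0.18 (SE 0.088). Of 11 tested ligands and adhesion partners 10 were lower, with a median of -0.11. THY1, a surface glycoprotein, had -0.82 (SE 0.44) and ICAM3, a ligand of ITGAL with ITGB2, had -0.14 (SE 0.089). All of these genes have a limma adjusted p of 0.997, and 57.5% of all genes were lower.

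Across the 32 mares ITGAM, ITGAX and ITGB2 varied together. Pearson's r between 2 genes was computed for all 28 pairs of members, with two-sided permutation p values from 100000 resamples adjusted over the 28 pairs, and 8 pairs passed 0.05. ITGAM and ITGB2, which form 1 receptor, had r = 0.816 (Spearman rho = 0.828, permutation p = 1e-05, the smallest the resamples can give, adjusted p = 0.00028). Within the progressive mares r was 0.863 and within the brutal mares 0.710, and on the 4 slides it ran from 0.743 to 0.942. Without the 2 mares farthest from the median ITGAM level it was 0.757, and without progressive 16 it was 0.790. Over the 5 tested ITGB2 probes r with ITGAM ran from 0.636 to 0.816, and the representative probe gave the highest value. The pair had a lower r but stayed called after quantile normalisation (r = 0.652, adjusted p = 0.00112) and in the deposited series table (r = 0.647, adjusted p = 0.00112).

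ITGAM and ITGAX, both alpha chains of ITGB2, had r = 0.733 (rho = 0.759, permutation p = 2e-05, adjusted p = 0.00028), with 0.667 in progressive and 0.872 in brutal mares and 0.807 without the 2 farthest mares. It ran from 0.392 on slide 4 to 0.931 on slide 1. ITGAX and ITGB2 had r = 0.556 (rho = 0.654, permutation p = 0.00087, adjusted p = 0.00406), with 0.538 in progressive and 0.650 in brutal mares. Without the 2 mares farthest from the median ITGAX level it was 0.484, and over the 25 combinations of tested probes it ran from 0.371 to 0.560. That pair ran from 0.124 on slide 4 to 0.865 on slide 1, and it was no longer called after quantile normalisation (r = 0.377, adjusted p = 0.106) or in the deposited series table (r = 0.398, adjusted p = 0.0782).

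The other heterodimer pairs were not called. ITGAL and ITGB2 had r = 0.338 (rho = 0.434, permutation p = 0.0577, adjusted p = 0.172), with 0.454 in progressive and 0.157 in brutal mares. Spearman's rho of that pair passed (adjusted p = 0.0439), and so did r once slide and group means were subtracted (r = 0.451, adjusted p = 0.0323). After that subtraction ITGAL with ITGAM (r = 0.435, adjusted p = 0.0393) and with SELPLG (r = 0.420, adjusted p = 0.0460), which are not heterodimer pairs, also fell under 0.05. The permutations after the subtraction took no account of the means removed. Those adjusted p values are therefore too small, and whether the ITGAL pairs would pass with the means allowed for was not tested. ITGA4 and ITGB7 had r = -0.214 (rho = -0.201, permutation p = 0.238, adjusted p = 0.370). In all, 2 of the 5 heterodimer pairs and 6 of the 23 other pairs were called.

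ITGA4 and ITGB1 had r = 0.320 (rho = 0.331, permutation p = 0.0736, adjusted p = 0.172), and after quantile normalisation it was called (r = 0.503, adjusted p = 0.0155). Its sign rests on the probe. Over the 35 combinations of tested probes r ran from -0.470 to 0.349, and it was above 0 in 10 of them. The ITGB1 probes fall into 2 sets. The representative probe, at chr29:3980750-3980809, and Oligo-184 correlated at r = 0.862. The other 5, annotated to 1 transcript at chr29:3966472-3971982, correlated among themselves at 0.588 to 0.972 and with the first 2 at 0.231 to 0.439. The files do not say which ITGB1 transcripts either set detects.

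SELPLG was in 5 of the 8 called pairs. It varied in the same direction as ITGAX (r = 0.594, rho = 0.594, permutation p = 0.00026, adjusted p = 0.00243), ITGAM (r = 0.560, rho = 0.523, permutation p = 0.00078, adjusted p = 0.00406), ITGB7 (r = 0.516, rho = 0.491, permutation p = 0.00251, adjusted p = 0.0100) and ITGB2 (r = 0.460, rho = 0.546, permutation p = 0.00876, adjusted p = 0.0307). Without the 2 mares farthest from the median level of the integrin gene, not of SELPLG, these were 0.486, 0.554, 0.518 and 0.533. Within groups, ITGAX had 0.706 in progressive and 0.484 in brutal mares, ITGAM 0.565 and 0.530, ITGB7 0.710 and 0.343, and ITGB2 0.465 and 0.461. On slide 2 the pair of ITGB7 and SELPLG had r = -0.188, against 0.576 to 0.890 on the other slides. Over the 4 slides r with SELPLG ran from 0.423 to 0.614 for ITGAX, from 0.192 to 0.917 for ITGAM and from 0.273 to 0.743 for ITGB2. The pairs of SELPLG with ITGB2 (r = 0.168, adjusted p = 0.428) and with ITGB7 (r = 0.408, adjusted p = 0.0846) were no longer called after quantile normalisation, and likewise in the deposited series table (r = 0.184, adjusted p = 0.450, and r = 0.400, adjusted p = 0.0782).

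With ITGB1, SELPLG varied in the opposite direction (r = -0.587, rho = -0.632, permutation p = 0.00046, adjusted p = 0.00322). This held at -0.460 in progressive and -0.723 in brutal mares, and at -0.795 to -0.641 on the 4 slides. Without the 2 mares farthest from the median ITGB1 level r was -0.541. It rests on the ITGB1 probe as well. All 7 tested probes gave an r below 0, from -0.587 to -0.034, and the 5 of the larger set gave -0.293 to -0.034.

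**Figure D3:**
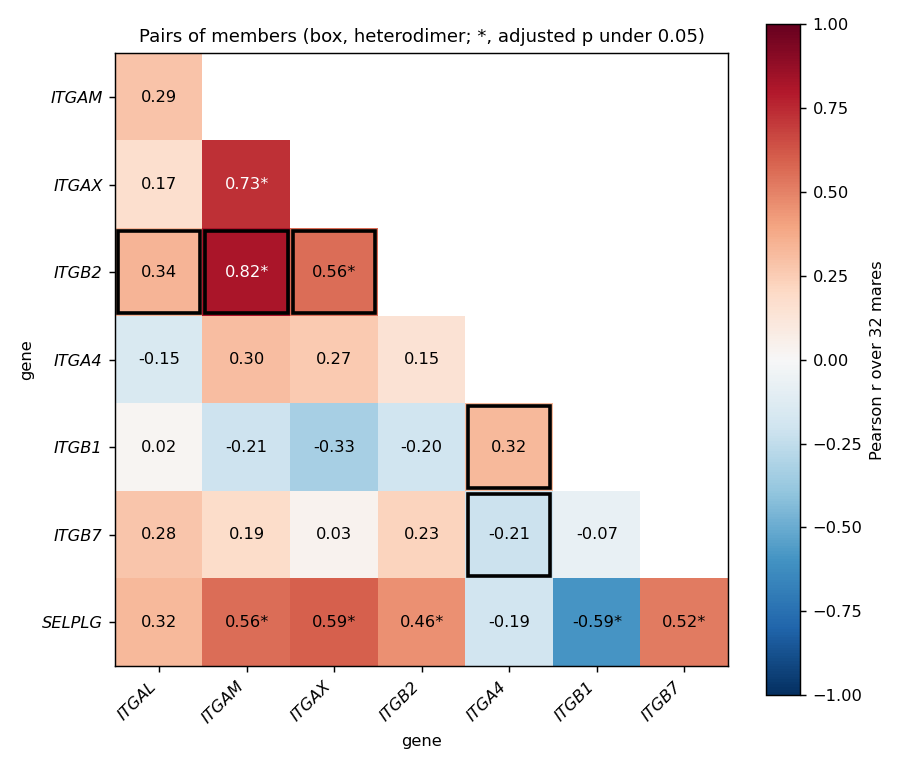
Pearson's r over 32 mares for the 28 pairs of members, with a box round the 5 heterodimer pairs and a star where the adjusted permutation p is under 0.05. ITGAM, ITGAX and ITGB2 form 1 block with r from 0.556 to 0.816, and ITGB1 is negative with SELPLG at -0.587.

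**Figure D4:**
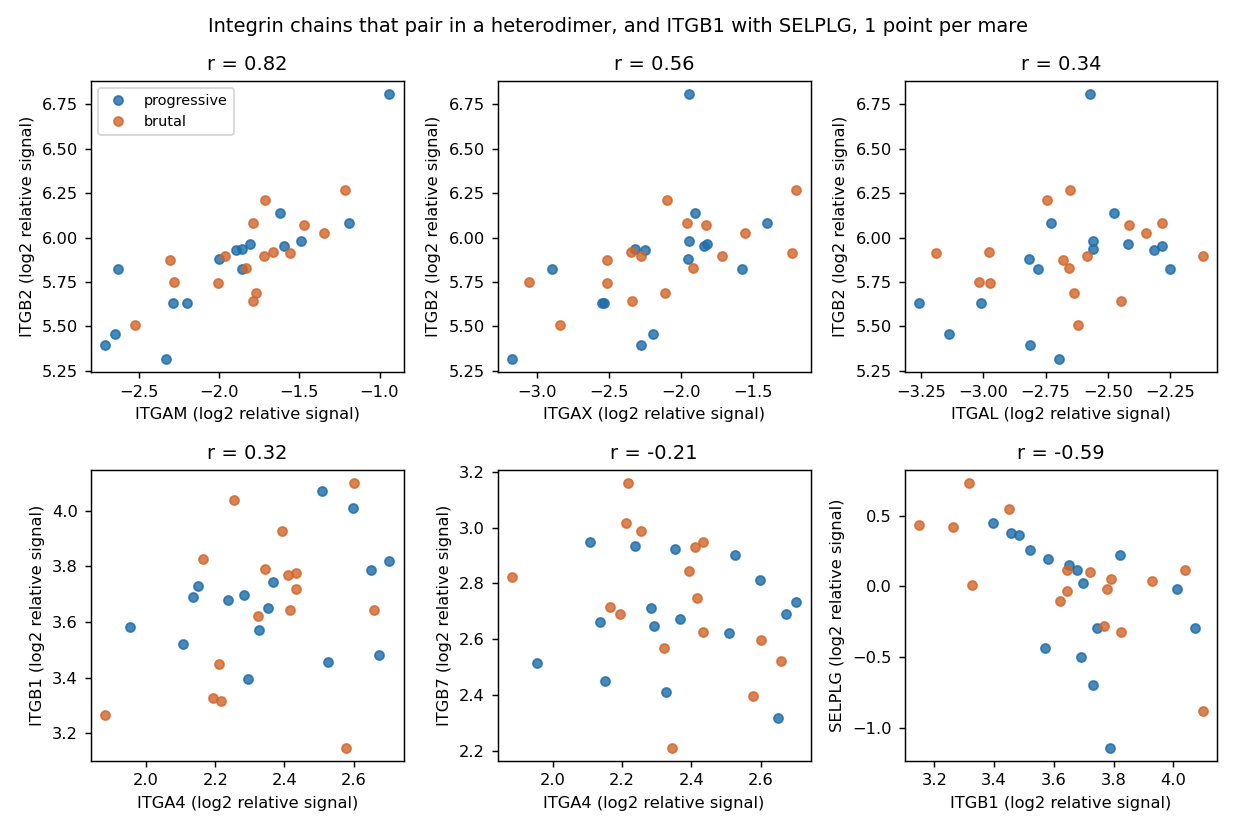
Levels of 2 genes in each of the 32 mares (log2 relative signal on both axes), progressive and brutal mares in different colours, for the 5 heterodimer pairs and for ITGB1 with SELPLG. The point at the top of the ITGAM and ITGB2 panel, at -0.94 and 6.81, is progressive 16, and r without it was 0.790.

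Blood is a mixture of cells, and in whole blood fewer cells of a type and less RNA per cell cannot be told apart. The members were therefore set beside scores of 9 marker lists (the mean z value of a list's tested genes), which hold no member, in 72 pairs. Of these, 8 passed an adjusted permutation p of 0.05. With the neutrophil score r was 0.792 for SELPLG (rho = 0.699, permutation p = 1e-05, adjusted p = 0.00048), 0.672 for ITGAM (rho = 0.625, permutation p = 7e-05, adjusted p = 0.00126), 0.646 for ITGAX (rho = 0.650, permutation p = 2e-05, adjusted p = 0.00048), 0.564 for ITGB2 (rho = 0.563, permutation p = 0.00063, adjusted p = 0.00756) and -0.515 for ITGB1 (rho = -0.533, permutation p = 0.00274, adjusted p = 0.0247). With the monocyte score it was 0.725 for SELPLG (rho = 0.627, permutation p = 2e-05, adjusted p = 0.00048), 0.585 for ITGAX (rho = 0.518, permutation p = 0.00039, adjusted p = 0.00562) and 0.562 for ITGAM (rho = 0.429, permutation p = 0.00079, adjusted p = 0.00813).

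The 2 mares farthest from the median level of each member were then left out. The neutrophil values were 0.706 for SELPLG, 0.595 for ITGAM, 0.587 for ITGAX, 0.508 for ITGB2 and -0.493 for ITGB1. The monocyte values were then 0.597 for SELPLG, 0.503 for ITGAX and 0.534 for ITGAM. Slide 2 gave low values, with 0.283 for ITGAM and 0.283 for ITGB2 with the neutrophil score and 0.087 for SELPLG with the monocyte score, and slide 4 gave -0.10 for ITGAX and -0.06 for ITGAM with the monocyte score. After quantile normalisation ITGB2 was no longer called with the neutrophil score (r = 0.300, adjusted p = 0.309). Over the 5 tested ITGB2 probes r with that score ran from 0.372 to 0.566. The ITGB1 value rests on the probe. With the neutrophil score the representative probe gave the strongest r, Oligo-184 gave -0.424, and the larger set of ITGB1 probes gave -0.426 to -0.188. By Spearman's rho ITGAM was not called with the monocyte score (adjusted p = 0.106). ITGAL, ITGA4 and ITGB7 were called with none of the 9 scores. ITGA4 and the platelet score, at r = -0.465 (rho = -0.476, permutation p = 0.00759, adjusted p = 0.0607), were called after quantile normalisation (r = -0.523, adjusted p = 0.0193). ITGAX and the T cell score, at r = -0.436 (rho = -0.367, permutation p = 0.0123, adjusted p = 0.0885), were called after quantile normalisation (r = -0.477, adjusted p = 0.0470) and in the series table (r = -0.547, adjusted p = 0.0127). The 2 brightest genes of the platelet list, SPARC and NRGN, had differences of 0.25 (SE 0.30) and -0.38 (SE 0.24), and those of the T cell list, CD3D and CD247, 0.01 (SE 0.089) and 0.05 (SE 0.11).

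The neutrophil score averaged -0.17 ± 0.77 after progressive and 0.17 ± 0.54 after brutal weaning (SD, n = 16 each), and 16 of its 18 tested genes had a difference below 0, with none called. The summed linear signal of the neutrophil list ran from 226.0 to 1039 after progressive and from 211.3 to 692.6 after brutal weaning. The 2 brightest neutrophil genes, PGLYRP1 and S100A12, both of neutrophil granules or cytosol, had differences of 0.41 (SE 0.24) and -0.13 (SE 0.23). The defining neutrophil genes CAMP, CXCR1, ELANE and FPR1 were not tested here. The monocyte score averaged -0.10 ± 0.53 after progressive and 0.10 ± 0.66 after brutal weaning, and 9 of its 13 tested genes had a difference below 0, with none called. The summed linear signal of the monocyte list ran from 217.5 to 555.6 after progressive and from 231.6 to 520.7 after brutal weaning. Its 2 brightest genes, LYZ (lysozyme) and FCN1 (a ficolin), had differences of -0.28 (SE 0.14) and -0.06 (SE 0.21). With neutrophil and T cell scores as covariates the difference was below 0 for 2 of the 8 members, against 58.3% of all genes, and no member was called. The part of blood composition in the pairs was not tested. As values beside them, once the linear part of the neutrophil score was removed from both genes, r was 0.715 for ITGAM with ITGB2, 0.529 for ITGAM with ITGAX, 0.303 for ITGAX with ITGB2, 0.061 for ITGAM with SELPLG, 0.176 for ITGAX with SELPLG, 0.026 for ITGB2 with SELPLG, 0.401 for ITGB7 with SELPLG and -0.343 for ITGB1 with SELPLG.

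**Figure D5:**
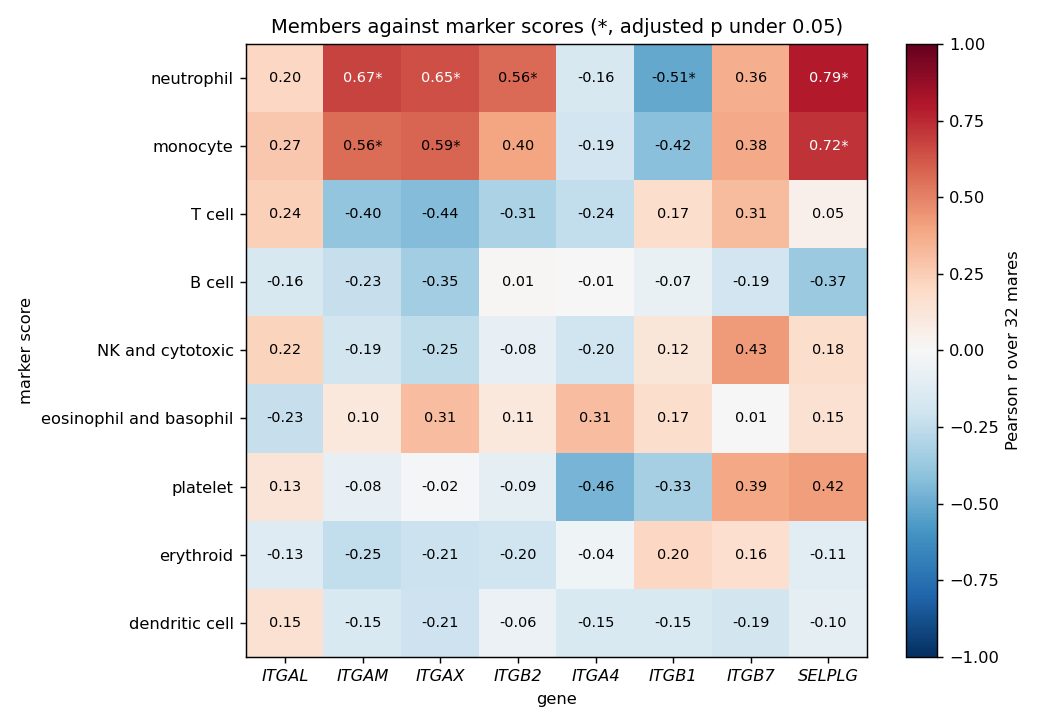
Pearson's r over 32 mares between each member and each of 9 marker scores, with a star where the permutation p adjusted over 72 pairs is under 0.05. The stars lie in the neutrophil and monocyte rows, with the highest r, 0.792, for SELPLG and the neutrophil score.

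The genes most like each member across the 32 mares, after group means were subtracted, are given by r alone among 9237 genes compared. ITGAM and ITGB2 were each other's closest gene, at r = 0.818. Next to ITGAM stood OSBPL11 (0.785) and SLC2A3 (0.783), and next to ITGB2 stood NUAK2 (0.763) and WFS1 (0.752). ITGAX was closest to PSTPIP2 (0.894), FAM49A (0.889) and IL17RA (0.872).

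SELPLG was closest to LRP10 (0.933), ICAM1 (0.929) and PTPN6 (0.924), and 358 genes, 3.88% of those compared, had an r over 0.7 with it. That number was 120 for ITGAX, 51 for ITGAM, 21 for ITGB1, 9 for ITGB2, 8 for ITGB7, 2 for ITGAL and 0 for ITGA4. ITGAL was closest to WIPF1 (0.747), MYH9 (0.733) and ZNF618 (0.696), and ITGA4 to CCDC82 (0.682), PTGER4 (0.663) and RAP1A (0.638). ITGB1 was closest to AZI2 (0.757), SCHIP1 (0.748) and HEATR3 (0.743), and ITGB7 to IDUA (0.765), PHF13 (0.762) and PPP1R18 (0.756).

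For each tested probe with 2 spots the spread between mares was larger than that between spots. The 2 spots of the ITGAM probe differed with an SD of 0.11 within an array, against 0.44 between mares. For the representative ITGB2 probe these were 0.049 and 0.28, and for ITGB7 0.094 and 0.22. They were closest for the ITGAL probe Oligo-183, at 0.25 and 0.31, and for the ITGB1 probe A_69_P006231, at 0.19 and 0.25. The spread between mares holds part of that between spots. Probes of 1 gene correlated at r = 0.890 to 0.990 for ITGB2 and 0.933 to 0.965 for the overlapping ITGAX probes. The 2 ITGAL probes, which share no long stretch, correlated at 0.697. For ITGA4, the probe at chr18:47828247-47828306 correlated with the 4 overlapping ones at 0.509 to 0.626.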

How the data were processed

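Whole blood RNA of 32 mares was measured on single-colour Agilent arrays, 1 per mare. Spot intensity was deposited as scanner output, background-subtracted and spatially detrended with Agilent Feature Extraction 10.10.1.1, per the file headers. A series table was deposited too, with log2 values of equal distribution on all arrays (medians 8.397 to 8.399), made with a tool not given in the sources used here.

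The processed signal was divided by the array's 75th percentile of non-control probes. Its log2 was averaged over a probe's spots, leaving out 2483 outlier spots. A probe was tested where it was well above background on at least 8 of 16 arrays of a group (26368 probes), and a gene took its brightest tested probe (9392 genes). The difference, progressive minus brutal, came from a two-sided limma test (version 3.58.1, R 4.3.3, group as the only term) with Benjamini-Hochberg adjustment. The fit was tested on simulated data for progressive against brutal with 9392 genes, where it recovered 67 of 100 genes changed by 0.5 and 96 of 100 changed by 1 on the log2 scale, with 9 false calls in all. In the simulation the genes varied independently and both sets were changed at once. It therefore does not give the share that would be recovered among the members here. Correlations used Python 3.11.15, numpy 2.4.6 and scipy 1.17.1 with 100000 permutations, the tables pandas 2.3.3 and the plots matplotlib 3.10.9.

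The members and all lists were chosen with earlier results of these data known. Named genes were all members, the 2 genes of smallest p of each adhesion list, the 3 genes most like each member, and the 2 brightest genes of a marker list named beside a result. One gene that this rule takes is not reported here. Coordinates are those of the files, and the RefSeq table of another assembly was used only for names and neighbours. Replicate numbers follow accession order and only name arrays. The alternatives were other background correction, normalisation and scaling, the series table, slide and row terms, slides alone or left out, other filters, the mean of a gene's probes, composition covariates, eBayes options and progressive 16 left out.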

Additional observations from a re-analysis of the deposited data

How the results depend on the processing

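No member was called under any alternative run, and 135 of 160 alternative differences of members kept their sign. Those that turned, as progressive minus brutal, were ITGB2 after quantile normalisation (0.062), in the series table (0.044), without slide 2 (0.024), within slides 3 (0.055) and 4 (0.074), and with composition covariates (0.045). ITGAL turned with the scaling percentile taken over detected probes (0.00028), within slides 1 (0.013) and 3 (0.051), and with covariates (0.012). ITGA4 turned without slide 1 (-0.0037), without slide 4 (-0.012), and within slides 2 (-0.056) and 3 (-0.080). Within slide 1 ITGAM had 0.109, ITGAX 0.058 and ITGB1 -0.045. Within slide 2 ITGB7 had 0.108 and SELPLG 0.056. Within slide 3 ITGAX had 0.157 and ITGB1 -0.039. With covariates ITGAM had 0.011, ITGAX 0.090, ITGB1 -0.029 and SELPLG 0.032, and 2 members were lower, against 58.3% of all genes. On slide 4 alone 1 probe was called, no member. Quantile normalisation gave 8 genes called between array rows, and the series table left 5 member pairs called, against 8. Over other probes the r of ITGA4 and ITGB1 fell to -0.470. These causes were not tested. No paired analysis was possible because the labels pair no progressive mare with a brutal mare. The adhesion lists without progressive 16, the r over other probes and the removal of the neutrophil score were chosen after seeing the data. Without progressive 16 no adhesion gene was called.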
